A study of Homo sapiens with 6 samples.

Results

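Neutrophil chemoattractant receptors were followed here as 8 genes (FPR1, FPR2, C5AR1, CXCR1, CXCR2, CXCR4, CCR1 and PTAFR) in NB4 cells treated with all-trans retinoic acid (ATRA). Membership was set by name: every Affymetrix probe set annotated to one of these genes alone, under its current or an older symbol, was taken. This gave 15 probe sets of 54675 on the array and 8 genes of 19775 that had such a probe set. NB4 is a human line established from an acute promyelocytic leukaemia. It carries the PML-RARA fusion, and ATRA makes it mature toward neutrophils. There was 1 array of untreated cells (0 h) and 1 each of cells harvested 4, 12, 24, 48 and 72 h after addition of 1e-06 M ATRA, 6 arrays in all. All came from this 1 line, grown in the same serum-containing medium, and the labels name no untreated culture at the later times, so time in ATRA and time in culture cannot be told apart. With 1 array per time no single value has a replicate.

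Chemoattractant receptors are G protein-coupled receptors of the plasma membrane that let a leukocyte sense a gradient and crawl toward its source. FPR1 and FPR2 bind formylated peptides released by bacteria and damaged mitochondria, C5AR1 binds the complement fragment C5a, and PTAFR binds the lipid platelet-activating factor (PAF). CXCR1 and CXCR2 bind interleukin-8 (CXCL8), CCR1 binds several CC chemokines, and CXCR4 binds CXCL12, which holds immature granulocytes in the marrow. The receptors signal mainly through inhibitory G proteins to phospholipase C and phosphoinositide 3-kinase gamma, and most of them are characteristic of late stages of granulocyte maturation.

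Of the 8 receptor genes, 7 were at least 2-fold above the untreated level at 72 h, and the exception was CXCR1. Their time courses were not alike. CCR1 was already 3.02-fold higher at 4 h, PTAFR and CXCR4 reached most of their gain by 12 h, CXCR2 climbed between 4 and 48 h, and C5AR1, FPR1 and FPR2 were near their untreated level until 24 h. The upstream sequences of 4 genes with unlike time courses are given here so that the genes can be set side by side before their values. They are the 250 bases before the RefSeq transcript start, 5′ to 3′ on the gene's strand, in GRCh38.p14. Capitals mark AGGAAG on either strand (CTTCCT is its reverse complement). It holds GGAA, the core recognised by ETS factors such as the myeloid factor PU.1. GGAA outside AGGAAG is not marked. CCR1 (early and continued gain) is read from chr3:46208314-46208563, minus strand. PTAFR (gain by 12 h) is from chr1:28193857-28194106, minus strand, FPR1 (gain after 24 h) from chr19:51751879-51752128, minus strand, and CXCR1 (flat) from chr2:218166963-218167212, minus strand.
CCR1: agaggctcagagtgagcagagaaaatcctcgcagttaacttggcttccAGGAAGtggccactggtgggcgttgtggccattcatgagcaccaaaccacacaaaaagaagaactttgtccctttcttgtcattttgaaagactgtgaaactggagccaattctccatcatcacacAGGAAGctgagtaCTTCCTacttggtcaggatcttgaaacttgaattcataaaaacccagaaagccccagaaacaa
PTAFR: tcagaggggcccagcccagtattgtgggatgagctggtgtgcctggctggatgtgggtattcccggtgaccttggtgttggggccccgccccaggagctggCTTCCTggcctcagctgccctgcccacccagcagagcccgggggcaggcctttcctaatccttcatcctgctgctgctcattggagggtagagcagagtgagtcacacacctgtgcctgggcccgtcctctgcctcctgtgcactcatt
FPR1: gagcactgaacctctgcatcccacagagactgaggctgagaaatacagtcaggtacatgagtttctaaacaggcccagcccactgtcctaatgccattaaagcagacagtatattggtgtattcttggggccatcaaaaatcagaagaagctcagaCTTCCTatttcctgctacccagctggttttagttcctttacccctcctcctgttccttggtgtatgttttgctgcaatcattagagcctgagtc
CXCR1: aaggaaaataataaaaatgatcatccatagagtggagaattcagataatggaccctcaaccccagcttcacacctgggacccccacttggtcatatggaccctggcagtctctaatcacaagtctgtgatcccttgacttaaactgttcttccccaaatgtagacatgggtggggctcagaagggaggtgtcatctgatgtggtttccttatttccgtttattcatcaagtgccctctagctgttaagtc

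AGGAAG was found 3 times in the CCR1 window, once each in the printed windows of PTAFR and FPR1, and not in that of CXCR1. PTAFR has a second window, inside the gene, which held none. The shorter GGAA is in the CXCR1 window as well. The CXCR2 window held AGGAAG as often as that of CCR1, and the C5AR1 window as often as the printed one of PTAFR. Any link between these counts and the time courses was not tested. RefSeq lists 12 such windows for the 8 genes, and 9 of the 12 held AGGAAG, with at least 1 for every gene but CXCR1. Over 35116 RefSeq windows of the same length 28.7% held it. The retinoic acid receptor half-site AGGTCA was in 1 of the 12 windows, the printed PTAFR one, against 12.1% of all windows. TGANTCA, the AP-1 motif, was also in that window alone (6.57% of all windows), and TTCNNNGAA, a STAT motif, was in the CCR1 window, where it overlaps an AGGAAG, and in 1 FPR2 window (6.57% of all). The C/EBP motif TTGCNNAA was in none of the 12 (9.05% of all windows). TATAAA was in 1 of the 3 CXCR4 windows and in no other (10.7%), and the GC box GGGCGG in 3 windows, 2 of CXCR4 and 1 of PTAFR (42.6%). All motifs were searched on both strands and were chosen after the expression values had been seen. These are counts of letters in short windows and do not show that a factor binds there.

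The 6 arrays had median log2 values of 3.64 to 3.69. Their bioC spike, a bacterial RNA added at hybridisation, read 8.01 and 8.11 on the 0 and 12 h arrays and 6.88 to 7.17 on the other 4, so the trend counts are also given within the 4, 24, 48 and 72 h arrays, where 2.2% of kept genes were called rising and 0.942% falling. With bioC as a covariate 4.94% were called rising and 9.57% falling, and without the 72 h array 3.24% and 1.98%; these shares are the background for the counts below under the same settings. The 3' minus 5' difference was 0.02 to 0.21 for GAPDH and 0.13 to 0.26 for ACTB. Of the promyelocyte and myeloid markers, 7 of the 8 with a probe set reached the median of all values, 3.66, which serves below as the level under which a signal is taken as low. Of the 7, 3 were called falling and 1 rising on the 6 arrays, against 9.86% and 8.33% of all kept genes. MPO, the myeloperoxidase of primary granules, went from 12.9 untreated to 10.92 at 72 h, and CTSG and CEBPA fell as well. CSF3R, the receptor for granulocyte colony-stimulating factor, rose from 6.2 to 10.06. SPI1, which encodes PU.1, went from 7.11 to 9.26 without a call, and the elastase gene ELANE stayed at or below 3.32. Of 9 monocyte and macrophage markers 7 stayed below 3.66, CD14 and MRC1 among them, CD163 was at least 2.34-fold higher at 72 h without a call, and the summed linear signal of the 9 ran from 68.7 untreated to 96.9 at 72 h. Summed signals of B cell markers were between 135 and 195, with CD79A rising (5.36 to 6.82) and CD79B falling (6.04 to 4.65), of T and NK cell markers between 73 and 95, of megakaryocyte markers between 85.9 and 105 and of erythroid markers between 20.9 and 23.6. These markers' part in the receptor values was not tested.

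**Figure D1:**
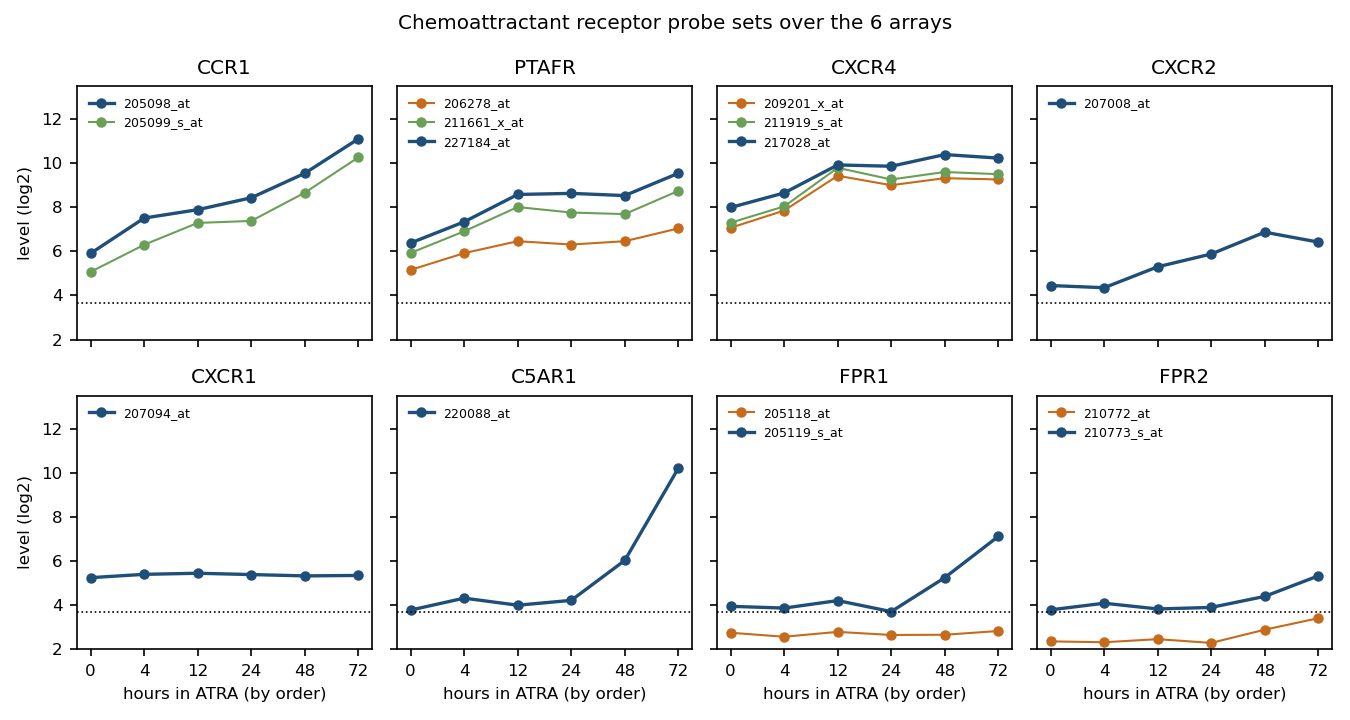
Log2 level of every probe set of the 8 receptor genes (y axis) on the 6 arrays (x axis, hours in ATRA by order), 1 panel per gene, with the thick dark line for the probe set used for the gene and the dotted line at 3.66. CCR1 climbs to 11.1 at 72 h, C5AR1 stays at or below 4.31 until 24 h and reaches 10.2, and CXCR1 stays between 5.24 and 5.44.

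CCR1, the receptor for CCL3, CCL5 and related chemokines, had the earliest difference. Its level was 5.91 untreated and 7.51, 7.89, 8.43, 9.54 and 11.1 after 4, 12, 24, 48 and 72 h. As deposited, every array was higher than the one before it. The gain over the 4 h array was 0.38 at 12 h, 0.93 at 24 h and 3.59 at 72 h. The 2-fold difference of CCR1 at 12 and 24 h thus rests on the untreated array. With arrays set to all hybridisation controls the gain was not unbroken: CCR1 was 2.31 above untreated at 4 h and 1.83 at 12 h. The 4 h difference of 1.59 (log2) made it the only receptor gene 2-fold or more higher then, 1 of 8, where 1.74% of the 13594 genes kept were 2-fold higher at 4 h and 1.81% lower. With arrays set to all hybridisation controls 5 of the 8 were 2-fold higher at 4 h. That setting adds 0.71 to every gene at 4 h, so the 1.74% is not its background. The share of all genes 2-fold higher under it was not computed. None of the 8 was 2-fold lower at 4 h or later. At 72 h CCR1 was 36.4-fold above untreated, and its second probe set differed by 5.19 where the first differed by 5.18. A straight line was fitted over time order, so that slopes are log2 units per array step, given with their standard errors. CCR1 rose with a slope of 0.93 ± 0.08 (limma adjusted p = 0.000654). Of the 8 genes it alone was called within the 4, 24, 48 and 72 h arrays, a fit that called 2.2% of all genes rising.

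PTAFR, the receptor for PAF, read 6.38 untreated and 7.34, 8.58, 8.63, 8.53 and 9.54 after 4, 12, 24, 48 and 72 h. It gained 0.96 by 4 h and 1.24 more by 12 h, was level to 48 h and then gained 1.0. Against untreated cells it stood 4.59-fold higher at 12 h and, at 72 h, 8.91-fold, and the gain from 4 to 24 h, on arrays with the same bioC level, was 1.29. PTAFR rose by 0.55 ± 0.09 per step (limma adjusted p = 0.00728). Its 3 probe sets had the same course but not the same size, with differences of 1.88, 2.81 and 3.16 at 72 h.

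CXCR4, the marrow-retention receptor, was measured at 7.99 untreated and 8.65, 9.92, 9.86, 10.39 and 10.23 after 4, 12, 24, 48 and 72 h. It resembled PTAFR up to 24 h, with 1.26 gained between 4 and 12 h and 1.2 between 4 and 24 h, and had no further gain between 48 and 72 h. It exceeded the untreated level 3.81-fold at 12 h and 4.72-fold at 72 h, and rose by 0.47 ± 0.08 per step (limma adjusted p = 0.0105). Its 3 probe sets differed from untreated by 2.2, 2.2 and 2.24 at 72 h. Between 12 and 48 h the probe set used for the gene went up by 0.47, from 9.92 to 10.39, whereas the other 2 were at their highest at 12 h (9.43 and 9.79). Without the untreated array the CXCR4 trend was not called (adjusted p = 0.0634).

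At 12 h, CCR1, PTAFR and CXCR4 were the 3 of 8 receptor genes that were 2-fold or more higher, against 2.30% of all kept genes higher and 1.93% lower. At 24 h CXCR2 joined them, giving 4 of 8, against 3.35% higher and 1.99% lower.

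**Figure D2:**
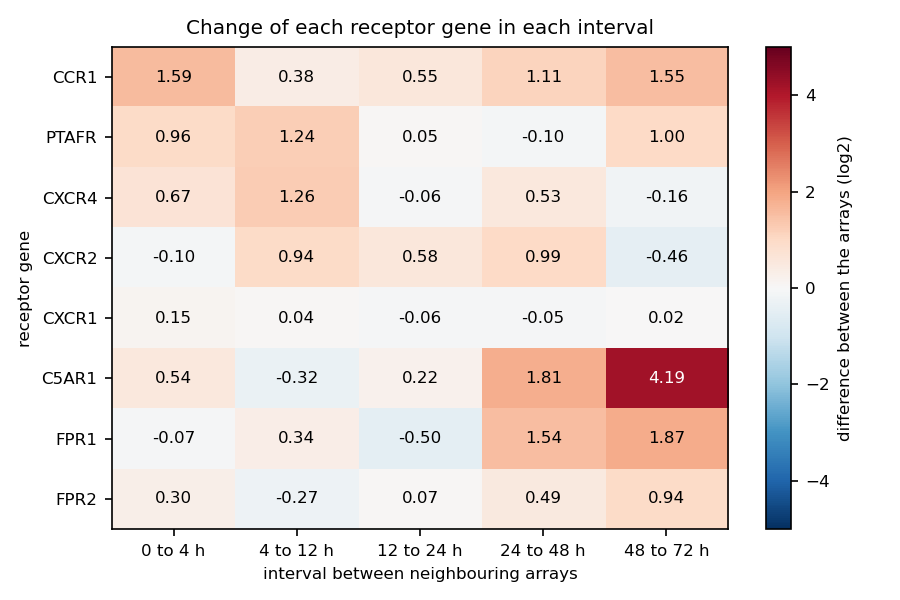
Log2 difference between neighbouring arrays (columns, the 5 intervals) for each receptor gene (rows), with the value printed in each cell. PTAFR and CXCR4 have their largest step from 4 to 12 h (1.24 and 1.26), and C5AR1, FPR1 and FPR2 from 48 to 72 h (4.19, 1.87 and 0.94). With arrays set to all hybridisation controls, PTAFR differed from untreated by 1.67, 2.05 and 3.08 at 4, 12 and 24 h. CXCR4 then differed by 1.38, 1.78 and 2.69, so both gained more from 12 to 24 h than from 4 to 12 h.

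The interleukin-8 receptors CXCR1 and CXCR2 are neighbouring protein-coding genes on chromosome 2 in the GRCh38.p14 gene table and share ligands, but their values differed. CXCR2 read 4.45 untreated and 4.35, 5.3, 5.88, 6.87 and 6.42 after 4, 12, 24, 48 and 72 h. As deposited, it was highest at 48 h, like the probe set used for CXCR4 but unlike the other CXCR4 probe sets. CXCR2 was 5.35-fold above untreated at 48 h and 3.89-fold at 72 h. CXCR2 rose by 0.51 ± 0.08 per step (limma adjusted p = 0.00638).

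CXCR1 read 5.24 untreated and 5.39, 5.44, 5.38, 5.32 and 5.34 after 4, 12, 24, 48 and 72 h. Its whole range was 0.2, and its slope was 0.01 ± 0.04 per step with no call (limma adjusted p = 0.94). The sign of so small a difference depends on the scaling of the arrays: at 72 h it was 0.1 as deposited and negative when arrays were set to the hybridisation controls without bioC. CXCR1 has 1 probe set, so no second one bears on whether this flat signal is the transcript's. Averaged over the 5 ATRA arrays, CXCR1 and CXCR2 differed from each other by 1.28 in their log2 difference from untreated. The difference between the genes' slopes was not tested.

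C5AR1, the C5a receptor, had the largest difference at 72 h of the 8 genes. It read 3.77 untreated and 4.31, 3.99, 4.21, 6.02 and 10.2 after 4, 12, 24, 48 and 72 h. The first 4 arrays lay within 0.54 of each other, just above the low-signal level. C5AR1 then exceeded untreated 4.74-fold at 48 h and 86.3-fold at 72 h, and its step from 48 to 72 h alone was 18.2-fold. Its 72 h difference of 6.43 lay at percentile 99.7 of the differences of all kept genes. C5AR1 rose by 1.07 ± 0.28 per step (limma adjusted p = 0.0335), a call that was lost without the 72 h array (slope 0.44, adjusted p = 0.111), without the 4 h array (adjusted p = 0.068), without the 12 h array (adjusted p = 0.0644) and with bioC as a covariate (adjusted p = 0.0912).

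FPR1, the high-affinity formyl peptide receptor, read 3.94 untreated and 3.86, 4.2, 3.7, 5.24 and 7.11 after 4, 12, 24, 48 and 72 h. As for C5AR1, only the 48 and 72 h arrays stood above the rest, 2.47-fold and 9.04-fold higher than untreated. FPR1 rose by 0.56 ± 0.16 per step (limma adjusted p = 0.0425), close to the threshold. The call held when the untreated or the 24 h array was left out and was lost when any of the other 4 was, with adjusted p from 0.069 to 0.308. It was also lost with bioC as a covariate (adjusted p = 0.079). The second FPR1 probe set stayed at or below 2.82 on all arrays, under the low-signal level, so 1 of 2 probe sets carries this result. With the mean of both, FPR1 was not called (adjusted p = 0.0593).

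FPR2, which binds formylated peptides as well as lipid and protein ligands such as annexin A1, lies next to FPR1 on chromosome 19. It read 3.78 untreated and 4.08, 3.82, 3.89, 4.39 and 5.32 after 4, 12, 24, 48 and 72 h. The order of the late arrays was the one seen in FPR1, with a smaller gain: FPR2 was 2.92-fold higher at 72 h, and its slope of 0.25 ± 0.08 per step had no call (limma adjusted p = 0.0572). Time in hours in place of time order gave a call (adjusted p = 0.00859). The second FPR2 probe set differed by 1.04 at 72 h but reached only 3.4. FPR3, the next gene on that side, stayed at or below 3.58 on all arrays.

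At 48 h 6 of the 8 receptor genes were 2-fold or more higher, all but CXCR1 and FPR2, where 5.83% of kept genes were higher and 4.49% lower. At 72 h 7 of 8 were, against 10.9% higher and 12.2% lower. With the 4 h array as baseline, which shares its bioC level with the 72 h array, the count was again 7, against 10.1% higher and 10.4% lower. The median 72 h difference of the 8 genes was 2.7, where that of all kept genes was -0.06. In the trend test 6 of the 8 rose and 0 fell, against 8.33% of all kept genes called rising and 9.86% falling. At an unadjusted p under 0.05 in limma the count was 7 rising, against 13.6% of all kept genes rising and 19.1% falling. With each probe set fitted on its own, 13 of the 15 reached the low-signal level and 11 of these 13 rose (7.47% of all 25189 such probe sets). The 2 left out, of FPR1 and FPR2, were kept out for low signal on all arrays.

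**Figure D3:**
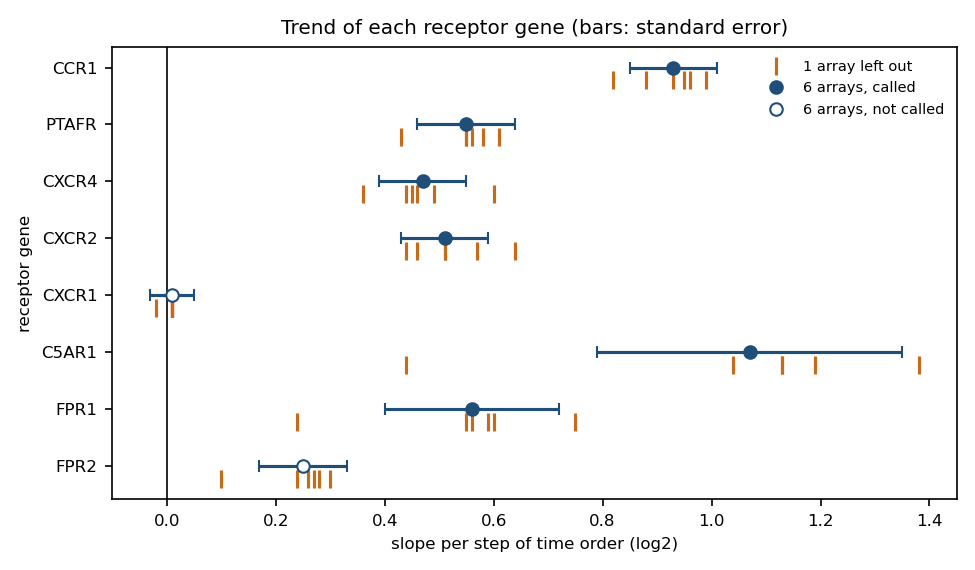
Slope per step of time order in log2 units (x axis) of each receptor gene (y axis) from all 6 arrays, with its standard error, filled where called, and the slopes with 1 array left out as ticks. CCR1 stays between 0.82 and 0.99 whichever array is left out, whereas C5AR1 runs from 0.44 to 1.38 and FPR1 from 0.24 to 0.75.

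The genes with the most similar course were found by the mean absolute difference in log2 difference from untreated over the 5 ATRA arrays, among the 3415 other genes that were 2-fold from untreated at some time. For CCR1 these were MAP3K5-AS2 (0.22), FXYD6 (0.28) and the lysosomal protease gene CTSD (0.29). For PTAFR they were HPCAL1 (0.19), TMC8 (0.22) and HIPK2 (0.28), and for CXCR4 SLC5A3 (0.17), ELK3 (0.18) and CEP128 (0.21). CXCR2 was nearest to IL10RB-DT (0.19), to CCL23 (0.22), which encodes a CCR1 ligand, and to PTPN22 (0.23). C5AR1 was nearest to CD274 (0.16), the gene of the checkpoint ligand PD-L1, to GPR82 (0.19) and to CLEC7A (0.24), a fungal glucan receptor. FPR1 was nearest to UBE2L6 (0.09), NAPSB (0.17) and TRIM5 (0.18), and FPR2 to NQO2 (0.08), ATXN7 (0.08) and C4orf33 (0.09). Among the receptor genes that differed by 2-fold, PTAFR and CXCR4 were closest to each other (0.42), and CCR1 and FPR2 farthest apart (2.46). All of these points come from the same 6 arrays.

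Other chemoattractant receptors of leukocytes numbered 26 on the list, of which 23 had a probe set and 14 were kept. Of the 14, 8 rose and 0 fell, against 8.33% and 9.86% of all kept genes. Their median difference was 1.76 at 72 h, or 1.18 with values under 3.66 set to it. HCAR3, a hydroxy-carboxylic acid receptor of neutrophils, was at least 38.6-fold higher at 72 h, since its untreated level was under 3.66. CXCR5 was 12.9-fold higher, CCRL2 11.2-fold, the C3a receptor gene C3AR1 10.3-fold, CX3CR1 7.3-fold and GPR35 6.92-fold. LTB4R, the leukotriene B4 receptor, was 3.69-fold higher, and C5AR2, the gene beside C5AR1, at least 1.39-fold, reaching 4.13 at 72 h and under the low-signal level on the other 5 arrays, so that it entered the test through 1 array. CCR2, CCR4, CCR6, CCR7, CCR9, CCR10, ACKR1, ACKR3 and FPR3 stayed below the low-signal level on all arrays. Listed receptors with no probe set of 1 gene, such as CCR3 and LTB4R2, were not analysed here. Without the 72 h array 4 of the 14 rose (CXCR5, CCRL2, LTB4R and HCAR3), with bioC as a covariate 5, and within the 4, 24, 48 and 72 h arrays 3 (C3AR1, CXCR5 and LTB4R). With the shift to controls without bioC, under which 24% of all genes fell, CXCR3 and PTGDR2 were called falling.

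Of 19 ligands of the 8 receptors, 15 had a probe set and 9 were kept, with a median of 0.8 at 72 h. Of the 9, 3 rose and 1 fell, against 8.33% and 9.86% of all kept genes. CXCL8, the ligand of CXCR1 and CXCR2, rose (0.89 ± 0.13 per step, limma adjusted p = 0.00482). It read 8.03 untreated and 8.14, 9.07, 11.63, 11.41 and 11.8 after 4, 12, 24, 48 and 72 h, so most of its gain fell between 12 and 24 h. The CCR1 ligands CCL23 and CCL7 rose as well. CCL23 differed by 2.11 at 72 h, and CCL7 was at least 6.13-fold higher. CCL7 was under the low-signal level on every array but that of 72 h, through which alone it entered the test, and it was not called with cyclic loess, with bioC as a covariate or without the 72 h array. CCL5, another CCR1 ligand, was at 9.26 untreated and 9.22 at 72 h with no call. MIF, which can bind CXCR2 and CXCR4, fell (11.59 untreated, 10.59 at 72 h, slope -0.17 ± 0.04), a call lost with cyclic loess, with the shift to all hybridisation controls, with bioC as a covariate and without the 72 h array. CAMP, whose peptide LL-37 binds FPR2, differed by 1.54 at 72 h and ANXA1 by 0.8, both without a call in the main fit. With bioC as a covariate ANXA1 was called rising. Within the 4, 24, 48 and 72 h arrays no ligand was called rising, CXCL8 included. CXCL1, CXCL2, CXCL3, CXCL5, CXCL6 and PPBP stayed below the low-signal level.

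The G proteins and effectors that couple these receptors to movement comprised 22 genes, of which 21 were kept. Of these, 10 rose and 1 fell, against 8.33% and 9.86% of all kept genes. Their median was 0.75 at 72 h. LSP1, an actin-binding leukocyte protein, was 59.3-fold higher at 72 h, and GNG2, a G protein gamma subunit, 44.8-fold. PLCB2 (9.1-fold), PIK3R5 (7.48-fold) and PIK3CG (5.96-fold), phospholipase C beta 2 and the regulatory and catalytic subunits of phosphoinositide 3-kinase gamma, were also higher, as was the GTPase gene RAC2 (3.4-fold). GNB2, GNG5, CDC42 and PRKCB rose too, by 0.65 to 0.81 at 72 h, but did not with either shift to the hybridisation controls. GNA15 fell (-1.13 at 72 h), a call lost with the shift to all controls and with bioC as a covariate. GNAI2, the main inhibitory alpha subunit of leukocytes, differed by 0.26 with no call. Without the 72 h array 5 of the 21 rose (GNG2, PIK3CG, PIK3R5, RAC2 and LSP1) and 1 fell, and with bioC as a covariate 5 rose (GNG2, PIK3CG, PIK3R5, PRKCB and LSP1) and 0 fell. Within the 4, 24, 48 and 72 h arrays 2 rose, PIK3R5 and LSP1.

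Receptor kinases, arrestins and regulators of G protein signalling (RGS) switch the receptors and their G proteins off. Of the 12 on the list 11 were kept. Of the 11, 2 rose and 0 fell, where 8.33% of all kept genes rose and 9.86% fell. The median was 0.05 at 72 h. The sign of this median is negative with the shift to controls without bioC (-0.51). RGS1 went from 3.7 untreated to 9.92 at 72 h and rose by 1.2 ± 0.08 per step (limma adjusted p = 0.000359). RGS2 went from 6.01 to 10.16 and already read 8.56 at 4 h (limma adjusted p = 0.00805), and within the 4, 24, 48 and 72 h arrays RGS1 alone of this list was called. RGS16 differed by -2.17, RGS18 by -1.02 and GRK2, a kinase that marks active receptors for arrestin, by -0.85 at 72 h, none with a call. GRK3, GRK5, GRK6 and ARRB1 were within 0.27 of untreated at 72 h.

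Of 7 kept genes for the synthesis or breakdown of PAF, the PTAFR ligand, 1 rose and 0 fell. Over all kept genes 8.33% rose and 9.86% fell. The rising gene was LPCAT2, the acyltransferase that makes PAF in leukocytes (0.9 at 72 h, limma adjusted p = 0.0367). Its call was lost with either control shift, with the bioC covariate and without the 72 h array. The other 6 had no call, and the median of the 7 was -0.32, which turns to 0.35 with the shift to all controls. With the shift to controls without bioC LPCAT1, PAFAH1B1 and PAFAH1B3 were called falling, and with bioC as a covariate PAFAH1B3 was. The 6 had 72 h differences from -0.93 for PAFAH1B3 to 0.79 for PAFAH2. PLA2G7, the secreted PAF hydrolase, stayed at or below 2.27.

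**Figure D4:**
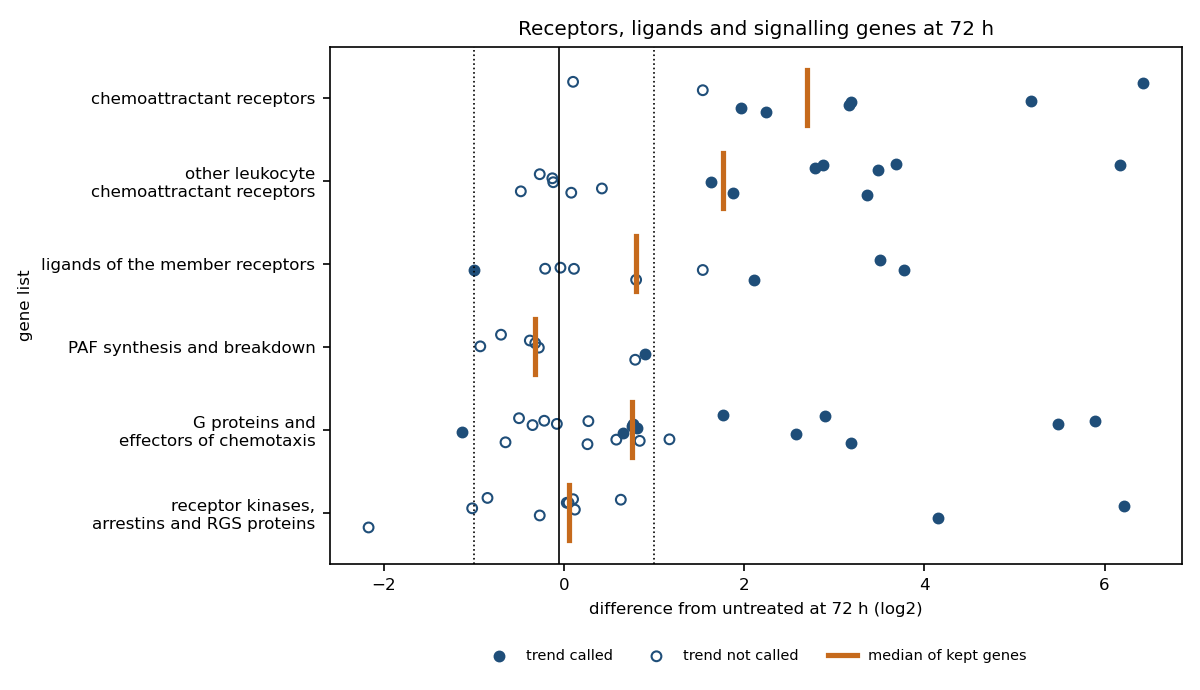
Difference from untreated at 72 h in log2 units (x axis) of each kept gene of the receptor list and of the 5 related lists (rows), filled where the trend was called, with the list median as a bar, the median of all kept genes as a solid line and 2-fold as dotted lines. The median is 2.7 for the 8 receptors, 1.76 for other chemoattractant receptors, 0.75 for G proteins and effectors and 0.05 for receptor kinases, arrestins and RGS proteins.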

How the data were processed

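Each of the 6 Affymetrix arrays was assigned its time from the label. The authors deposited log2 probe set values made with RMA, per the submitters' processing notes; neither its version nor a genome build is stated there. RMA makes arrays alike, so a shift of most transcripts one way would be hidden. Platform annotation gave 1 gene to 41097 of 54675 probe sets, several to 1801 and none to 11777. Without control probe sets 41091 were left. Of these, 41037 were matched by Entrez identifier to the GRCh38.p14 gene table, from which their symbols were taken. Each gene was represented by its brightest probe set on average. The 13594 genes that came to 3.66, the overall median, on some array were kept. Differences of single arrays have no test and were counted at 2-fold. Where an end lay below 3.66, the fold was taken from 3.66 and is written as at least so much. Trends over time order (0 to 5) used limma 3.58.1 under R 4.3.3: lmFit, then eBayes with the trend option, across all kept genes, with calls at an adjusted p (Benjamini-Hochberg) under 0.05. The fit was tested on simulated data. P-values measure scatter around a line, not replicates, and the number of arrays limits the precision. Similar genes were the 3 nearest per receptor. From each list the genes with the largest 72 h difference (up to 6) are named, with others that spell out a count or were picked after their values were seen (CCL5, GNAI2, the GRK genes and ARRB1). The receptors and lists were chosen with earlier results of these data known.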

Additional observations from a re-analysis of the deposited data

How the results depend on the processing

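The count of receptor genes higher at 72 h was 6 or 7 under every gene-level alternative, with 0 lower. The alternatives were cyclic loess, 2 shifts to the hybridisation controls, other probe set rules, filters, thresholds and baselines. The threshold was 2-fold except in the 1.5-fold and 3-fold settings. Of all genes 6.55% (3-fold) to 23.8% (shift to all controls) were higher under these settings. The filter at percentile 75 (5.74) left out CXCR1 and FPR2, so its 6 were all the receptor genes kept, against 15% of all genes. With every probe set as a unit, which only changes what is counted, 12 of the 13 kept were 2-fold higher at 72 h and 11 rose. Of all such probe sets 7.47% rose, and the share 2-fold higher was not computed. The count of rising receptor genes lay between 4 and 7 with 1 array left out in turn (3.24% to 7.92% of all genes rising), and was 5 with the mean of all probe sets (8.4%), 4 with bioC as a covariate (4.94%) and 1 (CCR1, 2.2%) within the 4, 24, 48 and 72 h arrays, a fit with fewer arrays. Equalising the control signals shifts every gene at 72 h by 0.66 with all 18 controls and by -0.56 without bioC, so that 23.8% of kept genes were higher and 3.65% lower with the first and 6.68% and 28.3% with the second. Of 304 recomputed differences of single receptor genes 6 fell below 2-fold: FPR2 at 72 h (0.98), FPR1 at 48 h (0.95) and CXCR2 at 24 h (0.95) with the second shift, CCR1 at 12 and 24 h (0.38 and 0.93) with the 4 h baseline, and FPR1 at 48 h (0.61) with the mean of all probe sets. Not all of the 304 could change. No receptor gene was represented by a probe set named x_at or read below 3.66. Leaving out x_at probe sets or setting low values to 3.66 thus returned the same differences. The mean of all probe sets likewise changed nothing for C5AR1, CXCR1 and CXCR2, which have 1 probe set each. With the first shift 7 passed 2-fold, namely PTAFR (1.67), CXCR4 (1.38), C5AR1 (1.25) and FPR2 (1.01) at 4 h, C5AR1 at 24 h (1.26), and FPR2 (1.61) and CXCR1 (1.08) at 48 h. Over all trend settings together, 16 of 134 recomputed slopes lost their call and 3 gained one. No called value changed sign. The alternatives for the other lists were added after seeing the data. No paired analysis was possible because each time has 1 array.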

Other observations

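As deposited, some genes around the receptors did not move one way through the time course. PTGDR2, a prostaglandin D2 receptor that attracts eosinophils and basophils, read 5.18 untreated and 6.23, 5.69, 5.36, 5.07 and 4.91 after 4, 12, 24, 48 and 72 h, so that the 4 h array alone was 2-fold higher. PLA2G4A, the phospholipase that releases the precursors of PAF and eicosanoids, read 6.82 untreated and 5.04, 5.87, 6.77, 6.92 and 6.5 after 4, 12, 24, 48 and 72 h, lowest at 4 h. GRK3 was also lowest at 4 h, at 4.53 against 5.62 untreated, and stood at 5.75 at 72 h. RGS16 read 7.48 untreated and 6.27, 8.5, 8.25, 5.99 and 5.31 after 4, 12, 24, 48 and 72 h. As deposited, it alone of these 4 crossed its untreated level in both directions by more than 1 log2 unit. The 2 control shifts move every gene by -0.15 or -0.08 at 12 h, and with either the RGS16 difference of 1.03 falls below 1. At 4 h they move every gene by 0.71 (all controls) or -0.41 (without bioC). The PTGDR2 difference of 1.04 then falls below 1 without bioC, and the GRK3 difference of -1.09 comes within 1 of untreated with all controls. None of the 4 genes had a called trend on the values as deposited, and none of these passing differences has a replicate. These genes were picked after their values were seen.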
